A study of Rattus norvegicus with 6 samples.

Results

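The glycolysis and gluconeogenesis genes were taken as the genes whose KEGG annotation in the deposited table names this pathway, 57 of 30957 genes listed, and they lay on 18 chromosomes of the rat genome build Rnor_6.0. Expression was measured by RNA-seq of libraries depleted of ribosomal RNA, from the lumbar enlargement on the side of the inoculated left tibia, with the meninges taken off. The female Wistar rats were sampled 14 days after inoculation, when bone cancer pain (BCP) rats had received living Walker 256 cells, a mammary carcinoma syngeneic to the strain, and sham-operated rats the same cells killed by heat. Both groups therefore had a punctured tibia with tumor cell material in it, and the living cells of the BCP rats were placed in the leg bone. Each group had 3 libraries. The sources do not say from how many rats each library came, so the p-values measure the spread between these libraries, which may be technical in part. Total counts on genes were 13366905 to 15004290 in sham and 11779485 to 13764758 in BCP, and the replicates of a group differed by more than sampling noise. Markers of the cord were abundant in every library, with a summed level of 8 neuronal markers of 2458 to 2836 FPKM (fragments per kilobase of gene, scaled to library size).

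Glycolysis splits glucose to pyruvate in the cytosol, and lactate dehydrogenase turns pyruvate into lactate and back. Gluconeogenesis runs the reversible steps the other way and replaces the irreversible ones with enzymes of its own. Several steps can be carried by isozymes from separate genes, of which some prevail in nervous tissue (hexokinase 1, aldolase C of astrocytes, gamma enolase of neurons, lactate dehydrogenase B) and others are known from leukocytes and dividing cells (hexokinases 2 and 3, lactate dehydrogenase A).

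Hk3, Hk2, Ldha and the aldehyde dehydrogenase gene Aldh3b1 rose more than 2-fold. Ldha lay at that threshold, at 2.01-fold, and the Aldh3b1 counts could hold reads of the overlapping gene Unc93b1. Ldhb, Pfkm, Eno2 and Aldoc, 4 of the 5 genes listed as brain isozymes, fell by less than 2-fold, and the fifth, Hk1, did not pass. The 6 genes listed as single or shared enzymes, Gapdh among them, did not pass the test either. Of the 57 genes 41 had enough counts to be tested, and 4 of them, or 9.76%, were higher in BCP past an adjusted p of 0.05 and a 2-fold change in edgeR's quasi-likelihood test, where 6.35% of the 14908 genes tested were. None was lower past both thresholds, against 0.107% of genes tested. DESeq2 also called 0 lower past both. At an unadjusted p under 0.05 edgeR gave 2641 lower and 2922 higher of the 14908 genes tested. Of the 41 pathway genes it gave 10 lower and 6 higher. With the adjusted p alone 6 were higher (14.6%, against 15.8% of genes tested) and 6 lower (14.6%, against 12.1%), and with upper-quartile normalization the split was 6 higher and 10 lower. Every BCP library lay above every sham library for 7 genes (21.7% of genes tested did so) and below for 8 (19.8% did so). These shares were near those of all genes. A gene such as Hk3 entered the test through its BCP libraries alone, so these counts describe the genes tested and not the whole pathway. The median log2 fold change was -0.05, beside -0.01 over all genes tested, and 19 of the 41 genes had an absolute log2 fold change under 0.1.

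**Figure D1:**
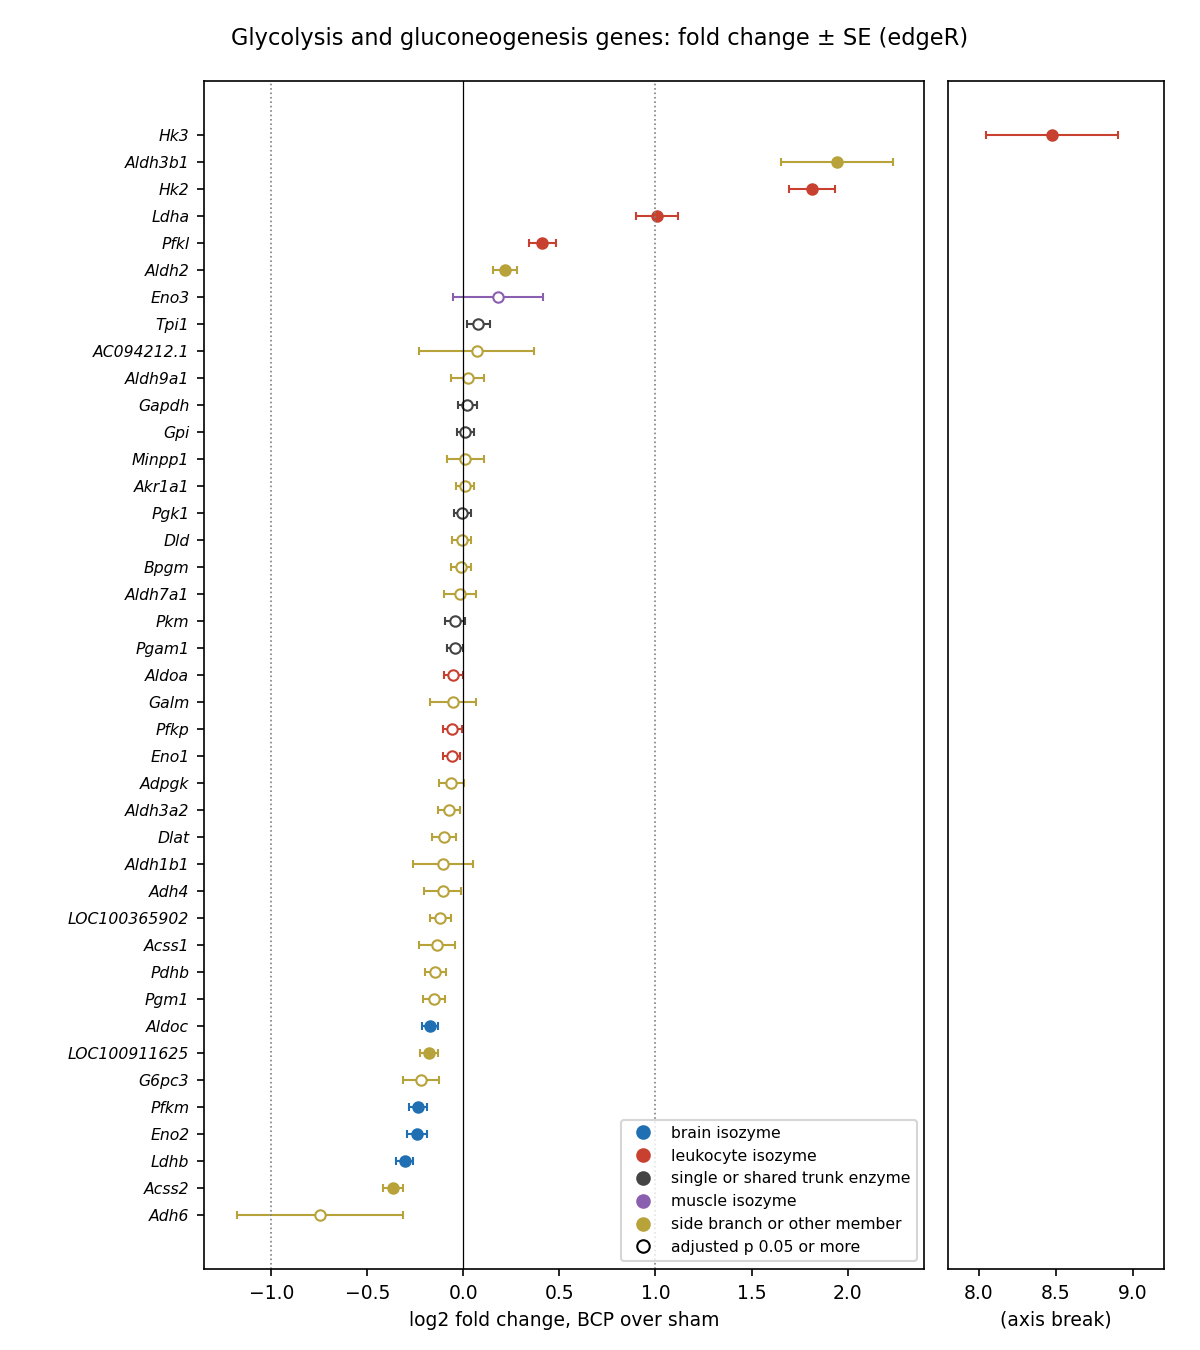
Log2 fold change, BCP over sham, with its standard error (edgeR) for the 41 pathway genes tested, colored by isozyme list. Filled points had an adjusted p under 0.05, dotted lines mark a 2-fold change, and the axis is broken to show Hk3 at 8.47. Only Hk3, Aldh3b1, Hk2 and Ldha lie beyond the right dotted line.

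Hexokinases trap glucose in the cell as glucose 6-phosphate. Hk3 (ENSRNOG00000026235, chr17:10137974-10152956), the hexokinase of white blood cells, was counted 1, 0 and 2 times in sham, against 265, 360 and 492 times in BCP. The gene was thus at the limit of detection in sham and present in each BCP library. On the scale of CPM (counts scaled to the TMM-normalized library size) the mean went from 0.0704 ± 0.0677 to 28.4 ± 7.79 (SD, n = 3 each). The ratio of the normalized sums of counts was 403, with an exact 95% binomial interval of 137 to 1956 that covers counting error only. The fitted log2 fold change was 8.47 with a standard error of 0.43 (edgeR, adjusted p = 2.26e-07), a value that rests on 3 counts in all of sham. It was 7.93 without sham replicate 2 and 9.28 without sham replicate 3, and DESeq2 gave 8.65 with all libraries. In tissue homogenates, more cells of a type and more RNA per cell cannot be told apart.

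Hk2 (ENSRNOG00000006116, chr4:113559427-113610243), the inducible hexokinase of muscle and activated cells, measured 32.1, 32.9 and 24.4 CPM in sham and 93.3, 114 and 107 CPM in BCP. The groups did not overlap, and Hk2 rose 3.52-fold (log2 1.81 ± 0.12 SE, edgeR, adjusted p = 6.85e-06). Hk1, the housekeeping hexokinase of brain, carries no KEGG entry in the deposited table and is not among the 57 genes. It was measured as the reference of the pair, at 287 ± 9.77 CPM in sham and 293 ± 11.5 CPM in BCP (log2 0.03 ± 0.05 SE, adjusted p = 0.706).

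The promoters of Hk3 and Hk2 are shown because these are the genes of the first step that rose most. Each runs 5′ to 3′ on the gene's strand from 250 bases before to 50 after the gene start, from RefSeq on build GRCr8, a later build than that of the counts. Capitals mark ACGTG or GCGTG on either strand, the core letters known to be bound by hypoxia-inducible factors, which overlap the E-box CACGTG. Hk3 lies on the plus strand (chr17:9604781-9605080) and Hk2 on the minus strand (chr4:116841226-116841525).
Hk3: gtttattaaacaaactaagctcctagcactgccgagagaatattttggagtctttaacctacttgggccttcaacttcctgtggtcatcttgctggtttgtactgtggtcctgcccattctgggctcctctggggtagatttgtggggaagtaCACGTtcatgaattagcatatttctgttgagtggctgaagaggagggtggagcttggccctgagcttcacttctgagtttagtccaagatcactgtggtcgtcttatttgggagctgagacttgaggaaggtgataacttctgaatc
Hk2: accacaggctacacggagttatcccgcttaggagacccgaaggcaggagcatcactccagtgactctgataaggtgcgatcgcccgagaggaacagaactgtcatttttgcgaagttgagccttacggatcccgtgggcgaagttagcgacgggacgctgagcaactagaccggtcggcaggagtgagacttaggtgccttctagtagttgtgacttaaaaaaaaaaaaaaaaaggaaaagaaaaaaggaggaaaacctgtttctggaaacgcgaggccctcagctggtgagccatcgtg
The Hk3 window held 1 match, 97 bases before the gene start, and the Hk2 window held 0.

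Phosphofructokinase commits the sugar to glycolysis and has muscle (Pfkm), liver (Pfkl) and platelet (Pfkp) subunits. Pfkl (chr20:11393877-11415882) measured 70.8, 82.1 and 70.8 CPM in sham and 91.6, 107 and 98.6 CPM in BCP, a rise of 33.0% (log2 0.41 ± 0.07 SE, edgeR, adjusted p = 0.000192). Pfkm (chr7:139685573-139722132) measured 357, 369 and 358 CPM in sham and 330.3, 296 and 295 CPM in BCP, and fell by 15.1% (log2 -0.24 ± 0.05 SE, adjusted p = 0.000901). Neither gene's groups overlapped. Pfkp did not pass (log2 -0.06 ± 0.05 SE, adjusted p = 0.437), with means of 359 ± 5.46 and 345 ± 23.3 CPM. Fbp1 and Fbp2, the fructose bisphosphatases that reverse this step, had at most 6 counts in a library and were not tested.

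Aldolase cuts the 6-carbon sugar. Aldoc (chr10:65586504-65590126), the aldolase of astrocytes, had the highest level per gene length of the 57 genes, 628 ± 18.4 FPKM in sham and 571 ± 21.6 FPKM in BCP. Its CPM were 1825, 1865 and 1762 in sham and 1682, 1540.3 and 1603 in BCP, without overlap, and it fell by 11.5% (log2 -0.18 ± 0.04 SE, edgeR, adjusted p = 0.00316). Aldoa, the widespread form, came next in level per gene length, with 479.7 ± 30.8 FPKM in sham and 476 ± 25.6 FPKM in BCP, and did not pass (log2 -0.05 ± 0.05 SE, adjusted p = 0.477).

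Of the 6 genes of the shared steps 0 passed, in edgeR or in DESeq2, and 0 had an unadjusted p under 0.05. Gapdh, which oxidizes glyceraldehyde 3-phosphate and was the reference transcript of the study's RT-qPCR, measured 305, 324 and 281 CPM in sham and 312, 315 and 296 CPM in BCP, and the groups overlapped (log2 0.02 ± 0.05 SE, adjusted p = 0.812). Gpi, the isomerase of glucose 6-phosphate, was at 0.01 ± 0.04 SE on the log2 scale, and Pgk1, a step that makes ATP, at -0.01 ± 0.04 SE. Pgam1, the mutase of phosphoglycerate, and Pkm, the pyruvate kinase of most tissues, were both at -0.04, with SE of 0.04 and 0.05. The sign of the log2 values of Gapdh, Gpi, Pgk1 and Pkm turned under some scalings or without some libraries. Tpi1, the triose phosphate isomerase, had its 3 BCP libraries above its 3 sham libraries (68.8 to 73.7 against 65.8 to 68.7 CPM), but its log2 difference of 0.08 ± 0.06 SE did not pass (adjusted p = 0.384). Enzyme genes of this stretch are known to have processed copies elsewhere in the genome, and a further row named Pkm on chromosome 20 stood at 593 CPM in BCP beside 574 CPM for the pathway row, so how reads were divided between such copies is uncertain. AC094212.1, annotated as a triose phosphate isomerase, was at 1.58 CPM in sham and 1.66 CPM in BCP.

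Enolase has a widespread alpha form (Eno1), a neuronal gamma form (Eno2) and a muscle beta form (Eno3). Eno2 (chr4:157285179-157294047) measured 218, 217 and 234 CPM in sham and 200.3, 182 and 183 CPM in BCP, without overlap, and fell by 15.4% (log2 -0.24 ± 0.05 SE, edgeR, adjusted p = 0.00103). LOC100911625 (chr9:20251521-20260505), annotated as gamma-enolase-like, measured 629.9, 703 and 647 CPM in sham and 608, 559 and 583 CPM in BCP, and fell by 11.6% (log2 -0.18 ± 0.05 SE, adjusted p = 0.00757). Reads of such a copy could be split with Eno2, so the values of each are uncertain. The call of LOC100911625 was lost without sham replicate 2 (adjusted p = 0.0592) and without BCP replicate 2 (adjusted p = 0.0554). Eno1 did not pass (log2 -0.06 ± 0.05 SE, adjusted p = 0.369), nor did Eno3 (log2 0.18 ± 0.23 SE, adjusted p = 0.627), the only tested gene of the muscle list.

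Lactate dehydrogenase closes the anaerobic route. Ldha (ENSRNOG00000013009, chr1:102900286-102909707), the subunit of muscle and proliferating cells, measured 38.8, 37.7 and 30.6 CPM in sham and 63.1, 81.7 and 70.5 CPM in BCP. It rose 2.01-fold (log2 1.01 ± 0.11 SE, edgeR, adjusted p = 3.19e-05), which lies at the 2-fold threshold. The log2 value was 0.97 with upper-quartile normalization and 0.91 without sham replicate 3 or without BCP replicate 2, all with an adjusted p under 0.05. Ldhb (ENSRNOG00000013000, chr4:176701983-176720012), the subunit of heart and brain, measured 384, 389 and 391 CPM in sham and 326, 309.9 and 307 CPM in BCP. The sham libraries lay within a narrow range, all BCP libraries lay below it, and Ldhb fell by 19.1% (log2 -0.31 ± 0.04 SE, adjusted p = 1.64e-05). Ldhc, the subunit of germ cells, had no count in any library.

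**Figure D2:**
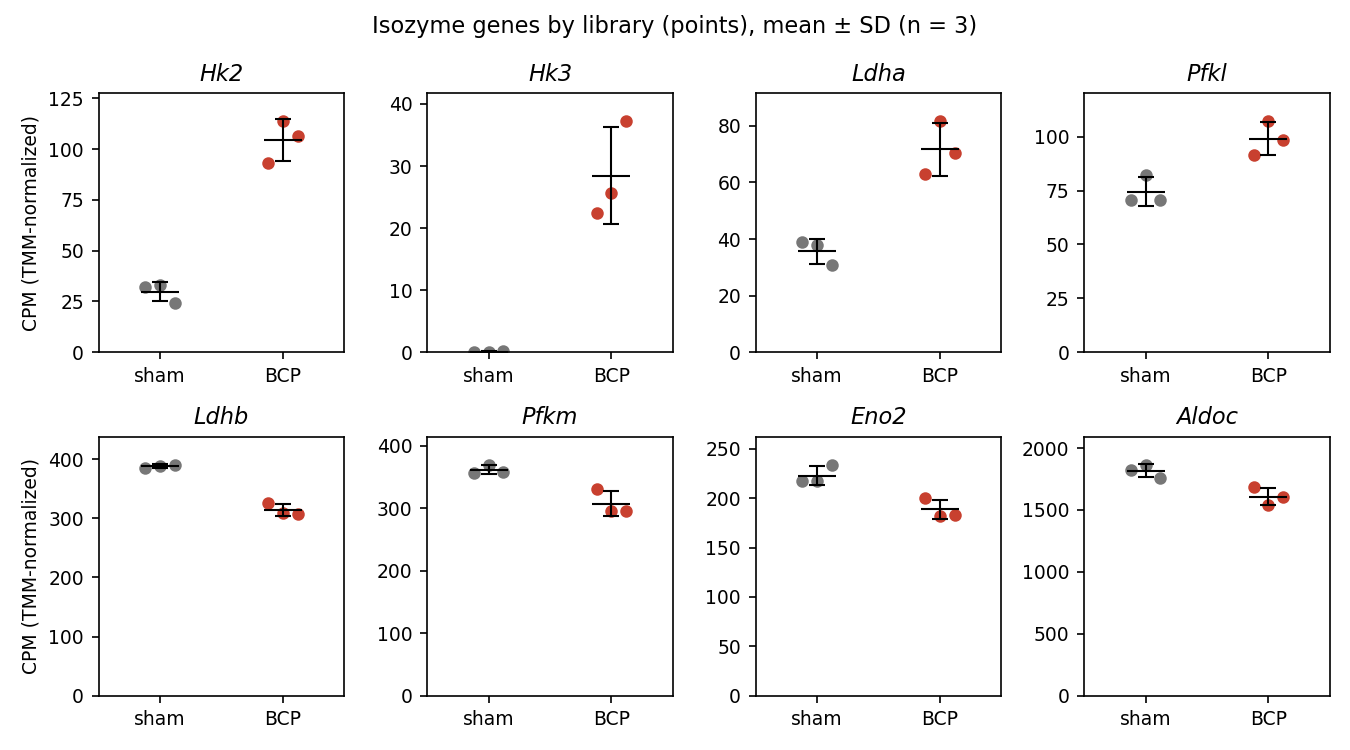
TMM-normalized CPM of 8 isozyme genes in each library (points) with the mean and SD of 3 sham and 3 BCP libraries, each panel on a linear axis from 0. The upper row holds genes whose BCP libraries all lie above sham (Hk2, Hk3, Ldha, Pfkl), the lower row genes whose BCP libraries all lie below sham (Ldhb, Pfkm, Eno2, Aldoc).

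The promoters of the lactate dehydrogenase pair are shown because the subunit genes moved in opposite directions, with the same window and marks as above. Ldha lies on the plus strand (chr1:106507842-106508141) and Ldhb on the minus strand (chr4:177177359-177177658).
Ldha: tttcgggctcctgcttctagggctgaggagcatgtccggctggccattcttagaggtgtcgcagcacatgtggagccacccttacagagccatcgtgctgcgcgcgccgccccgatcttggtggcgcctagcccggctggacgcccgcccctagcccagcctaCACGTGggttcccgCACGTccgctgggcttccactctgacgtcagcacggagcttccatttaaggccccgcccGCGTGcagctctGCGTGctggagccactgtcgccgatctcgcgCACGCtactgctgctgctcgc
Ldhb: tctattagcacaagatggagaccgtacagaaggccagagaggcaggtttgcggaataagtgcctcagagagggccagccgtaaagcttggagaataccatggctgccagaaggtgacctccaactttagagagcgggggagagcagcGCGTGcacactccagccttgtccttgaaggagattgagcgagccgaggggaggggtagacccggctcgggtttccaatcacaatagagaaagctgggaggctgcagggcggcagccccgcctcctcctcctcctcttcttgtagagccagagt
The Ldha window held 6 matches, of which the pair at the palindrome CACGTG are the same site read on both strands, and the Ldhb window held 1, which lay 103 bases before the gene start. Promoters were found for 44 of the 57 genes and for 35 of the 41 tested. ACGTG or GCGTG occurred in 24 of these 35 windows (68.6%), in 60.5% of the windows of all tested genes and in 42.9% of all 27457 windows of 300 bases. Among pathway genes with an adjusted p under 0.05 (edgeR), 3 of 5 windows of higher genes and 4 of 5 of lower genes held it. GAGGAAGT, a sequence bound by the myeloid factor PU.1, occurred in 0 of the 35 windows and in 2.44% of all. A match is a description of the letters and not a site in use.

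Of the brain isozyme genes, Hk1, Pfkm, Aldoc, Eno2 and Ldhb, 4 of 5 were lower with an adjusted p under 0.05 in edgeR and in DESeq2. Hk1 was the exception, and the median log2 fold change of the 5 was -0.24. Of all 14908 genes tested, 12.1% were lower and 15.8% higher in edgeR, and DESeq2 called 1361 lower and 2056 higher. Of the isozyme genes listed for leukocytes, 4 of 7 tested were higher in both tools (Hk3, Hk2, Ldha and Pfkl), with a median of 0.41. Aldoa, Eno1 and Pfkp of that list did not pass and were abundant in sham, so they are not restricted to leukocytes, and Fbp1 was not tested. Of the 4 that rose, Pfkl, Ldha and Hk2 were also expressed in sham (means of 74.6, 35.7 and 29.8 CPM), and Hk3 alone was near 0. Pfkp held 53.9% of phosphofructokinase FPKM in sham and Pfkm 36.9%, so the placing of these subunits in the lists is uncertain. The lists were drawn up with results of these data known, and their counts describe the genes without testing the lists. The ratio of isozymes within a library, which does not depend on the scaling of the library, was tested with a two-sided exact permutation test over the 6 libraries, where 0.1 is the smallest p that 3 against 3 can give. The groups did not overlap for 5 of 7 ratios, each with an exact permutation p of 0.1 and 0.14 after Benjamini-Hochberg adjustment over the 7. On the log2 scale of FPKM ratios the BCP mean exceeded the sham mean by 1.79 for Hk2 to Hk1, 0.65 for Pfkl to Pfkm, 0.18 for Pfkp to Pfkm and 1.31 for Ldha to Ldhb. For Hk3 to Hk1 the difference was 5.9998 with 0.1 FPKM added to both because of the sham zero, and it depends on that addition. The groups overlapped for Aldoa to Aldoc (0.13, exact p = 0.3) and for Eno1 to Eno2 (0.18, exact p = 0.2). With LOC100911625 added to Eno2 the enolase groups also overlapped (0.13, exact p = 0.2).

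The isozyme with the most FPKM in each reaction was the same in the 2 groups. Hk1 made up 95.02% ± 0.684 of hexokinase FPKM in sham and 80.0% ± 2.50 in BCP (SD, n = 3). Hk2 went from 4.85% ± 0.678 to 14.1% ± 1.21 and Hk3 from 0.0178% ± 0.0171 to 5.81% ± 1.66. Summed hexokinase went from 111 ± 4.34 to 138 ± 3.50 FPKM (exact permutation p = 0.1), while Hk1 itself did not pass the test. Lactate dehydrogenase differed from hexokinase in this respect. Ldha went from 7.16% ± 0.870 to 16.1% ± 2.06 of the summed FPKM. The sum of the lactate dehydrogenases went from 308 ± 2.64 to 283 ± 4.43 FPKM (exact permutation p = 0.1), since Ldhb lost more FPKM than Ldha gained. Summed aldolase also went down, from 1107 ± 46.1 to 1047 ± 23.6 FPKM (exact permutation p = 0.1). So did summed Eno1, Eno2 and Eno3, from 279 ± 8.77 to 264 ± 4.28 FPKM (exact permutation p = 0.1). Pfkl went from 9.14% ± 0.723 to 12.8% ± 1.21 of phosphofructokinase and Pfkm from 36.9% ± 0.448 to 32.9% ± 1.65. Pfkp kept the largest share of phosphofructokinase, 53.9% ± 1.14 in sham and 54.3% ± 1.18 in BCP. The sum of the 3 subunits was 292 ± 3.25 and 286 ± 12.6 FPKM (exact permutation p = 0.8). Eno1 held 64.0% of enolase FPKM in sham and Eno2 35.2% where LOC100911625 was left out. With LOC100911625 counted as an enolase, that gene held 49.7% in sham and 48.7% in BCP. Eno1 then held 32.1% and 34.2%, and Eno2 17.7% and 16.6%. The authors' FPKM carry no TMM normalization. All 57 genes together took 0.846% to 0.889% of the counts in sham and 0.832% to 0.843% in BCP. The 4 genes that rose more than 2-fold made up 0.762% of the summed CPM of the 57 genes in sham and 2.52% in BCP.

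**Figure D3:**
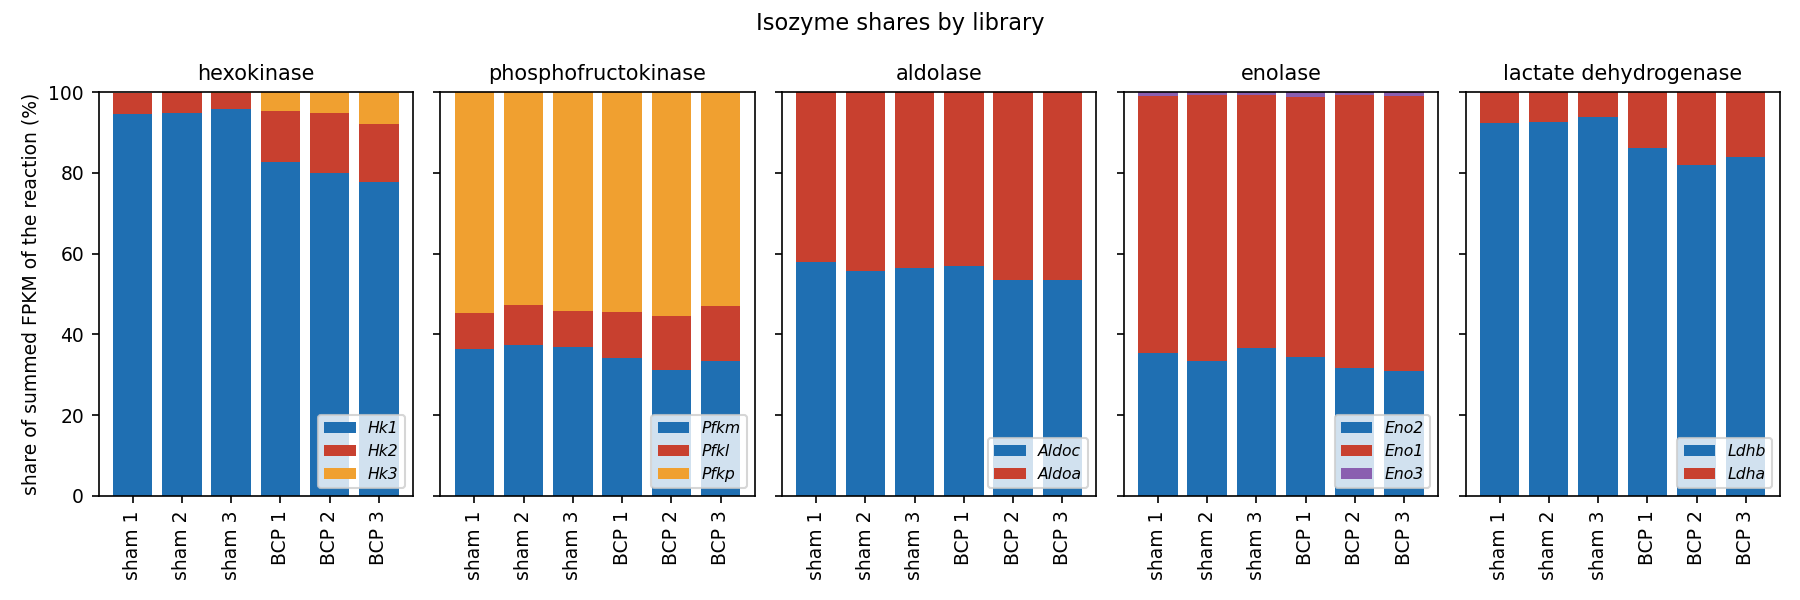
Share of each isozyme in the summed FPKM of its reaction, in percent, for each of the 3 sham and 3 BCP libraries. Blue is the isozyme of the brain list. The enolase panel leaves out LOC100911625, annotated as gamma-enolase-like. Hk2 and Hk3 widen in BCP (to 14.1% and 5.81% on average) and so does Ldha (to 16.1%), while the shares of the aldolases and enolases overlap between groups.

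Among the side branches, 3 genes passed with the adjusted p. Aldh3b1, an aldehyde dehydrogenase, had 12, 10 and 18 counts in sham and 41, 49 and 53 in BCP (log2 1.94 ± 0.29 SE, edgeR, adjusted p = 3.52e-05). Its span overlaps Unc93b1, a carrier of Toll-like receptors, which went from 10.8 ± 1.57 to 45.9 ± 5.11 CPM (log2 2.09 ± 0.11 SE). The use of strand in the counting is not given, so the Aldh3b1 counts could hold reads of Unc93b1. Aldh2, which oxidizes acetaldehyde in mitochondria, measured 63.6, 63.7 and 66.3 CPM in sham and 73.0, 71.1 and 81.1 CPM in BCP (log2 0.22 ± 0.06 SE, adjusted p = 0.0141). Without BCP replicate 3 the value was 0.16 (adjusted p = 0.110). Acss2, which makes acetyl-CoA from acetate, measured 170.1, 192 and 182 CPM in sham and 148, 134 and 140.4 CPM in BCP, without overlap, and fell by 22.4% (log2 -0.37 ± 0.05 SE, adjusted p = 2.88e-05).

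The pyruvate dehydrogenase complex feeds pyruvate into the tricarboxylic acid cycle. Pdhb, Dlat and Dld of it did not pass in edgeR or DESeq2, and neither did LOC100365902 in edgeR. Pdhb, the beta subunit of E1, was at -0.15 ± 0.06 SE on the log2 scale (edgeR, unadjusted p = 0.0157, adjusted p = 0.0548), LOC100365902, annotated as an E1 alpha subunit, at -0.12 ± 0.06 SE (unadjusted p = 0.0442, adjusted p = 0.122), and Dlat and Dld, the E2 and E3 components, at -0.10 ± 0.06 SE and -0.01 ± 0.05 SE. Pgm1, which links glucose 6-phosphate to glycogen, measured 84.9, 85.8 and 86.7 CPM in sham and 71.5, 80.8 and 78.8 CPM in BCP. Its groups did not overlap, but the difference missed the threshold (log2 -0.15 ± 0.06 SE, adjusted p = 0.0575). Log2 fold changes of the 29 tested genes that did not pass ran from -0.75 (Adh6, 4 to 18 counts in a library) to 0.18 (Eno3). Of the 16 genes without enough counts, Pgam2, Pdha2, Ldhc and Pgk2 had no count in any library. The other 12, among them LOC303448, Aldh3a1, Pklr, Pck1, Fbp2, G6pc, Aldoart2, Aldh1a3, Gapdhs and Fbp1, had at most 12 counts in a library. They include the liver and kidney enzymes of gluconeogenesis, Pck1, G6pc and Fbp1, for which a difference was not detectable at this depth. A further row named G6pc on chromosome 10, which carries no entry for the pathway, had 85.2 ± 3.40 CPM in sham and 93.5 ± 3.43 CPM in BCP and did not pass (log2 0.13 ± 0.06 SE, edgeR, adjusted p = 0.0850), with its BCP libraries all above sham.

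Genes around the pathway were described from lists of their own. Of 10 tested carriers of glucose, lactate and related compounds 4 were higher with an adjusted p under 0.05, beside 15.8% of all genes tested. The other 6 did not pass. At an unadjusted p under 0.05 in edgeR 5 carriers were higher and 2 lower. Slc16a3, the lactate exporter of glycolytic cells, measured 1.295, 1.19 and 1.08 CPM in sham and 4.48, 9.21 and 7.26 CPM in BCP (log2 2.56 ± 0.28 SE, edgeR, adjusted p = 8.85e-07). Slc37a2, a glucose 6-phosphate carrier of macrophages, stood at 1.35 ± 0.25 SE on the log2 scale, Slc2a5, a fructose carrier found in microglia, at 0.88 ± 0.17 SE and Slc16a7, a lactate importer, at 0.64 ± 0.19 SE. Slc2a1, the glucose carrier of the blood-brain barrier, did not pass (log2 0.02 ± 0.05 SE, adjusted p = 0.849).

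Of 17 tested regulators 4 were higher and 3 lower, beside 15.8% and 12.1% of all genes tested, and 4 and 6 had an unadjusted p under 0.05. Myc, a transcription factor that acts on glycolytic genes, measured 4.34, 3.0005 and 2.90 CPM in sham and 14.8, 17.5 and 15.0 CPM in BCP (log2 2.21 ± 0.17 SE, edgeR, adjusted p = 5.04e-09). Hif1a, the hypoxia-inducible factor subunit, went from 152 ± 8.74 to 228 ± 2.95 CPM (log2 0.58 ± 0.05 SE, adjusted p = 1.83e-08). Hif3a, a related subunit, measured 2.67, 6.14 and 6.21 CPM in sham and 2.70, 1.93 and 1.51 CPM in BCP. The test called it lower (log2 -1.31 ± 0.32 SE, adjusted p = 0.00691), although sham replicate 1 lay within the BCP range. The pyruvate dehydrogenase kinases, which switch the complex off, divided: Pdk1 and Pdk3 were higher (log2 0.50 and 0.22) and Pdk4 and Pdk2 lower (log2 -0.49 and -0.31).

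In the pentose phosphate pathway 3 of 6 tested genes were higher, beside 15.8% of all genes tested, and 2 in DESeq2. They were the isomerases of its later part, Rpe (log2 0.56 ± 0.08 SE) and Rpia (0.57 ± 0.15 SE), and H6pd (0.32 ± 0.10 SE), the hexose 6-phosphate dehydrogenase of the endoplasmic reticulum. In the tricarboxylic acid cycle 3 of 15 tested genes were lower, among them Cs (-0.18 ± 0.05 SE) and Idh3g (-0.18 ± 0.05 SE), and with library size alone as the scale 1 was lower. Of all genes tested 12.1% were lower, so the count is not a result about the cycle. At an unadjusted p under 0.05 in edgeR 7 of the 15 were lower, beside 2641 of the 14908 genes tested. The log2 fold change was negative for 14 of the 15, with a median of -0.10, beside -0.01 over all genes tested. Among 8 genes of glycogen metabolism the phosphorylases parted by isozyme. Pygl, the form of liver and leukocytes, measured 3.96, 4.19 and 4.25 CPM in sham and 22.6, 36.3 and 37.7 CPM in BCP (log2 2.96 ± 0.21 SE, edgeR, adjusted p = 7.01e-06), whereas Pygm of muscle and astrocytes (-0.42 ± 0.06 SE) and Pygb of brain (-0.17 ± 0.04 SE) were lower.

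**Figure D4:**
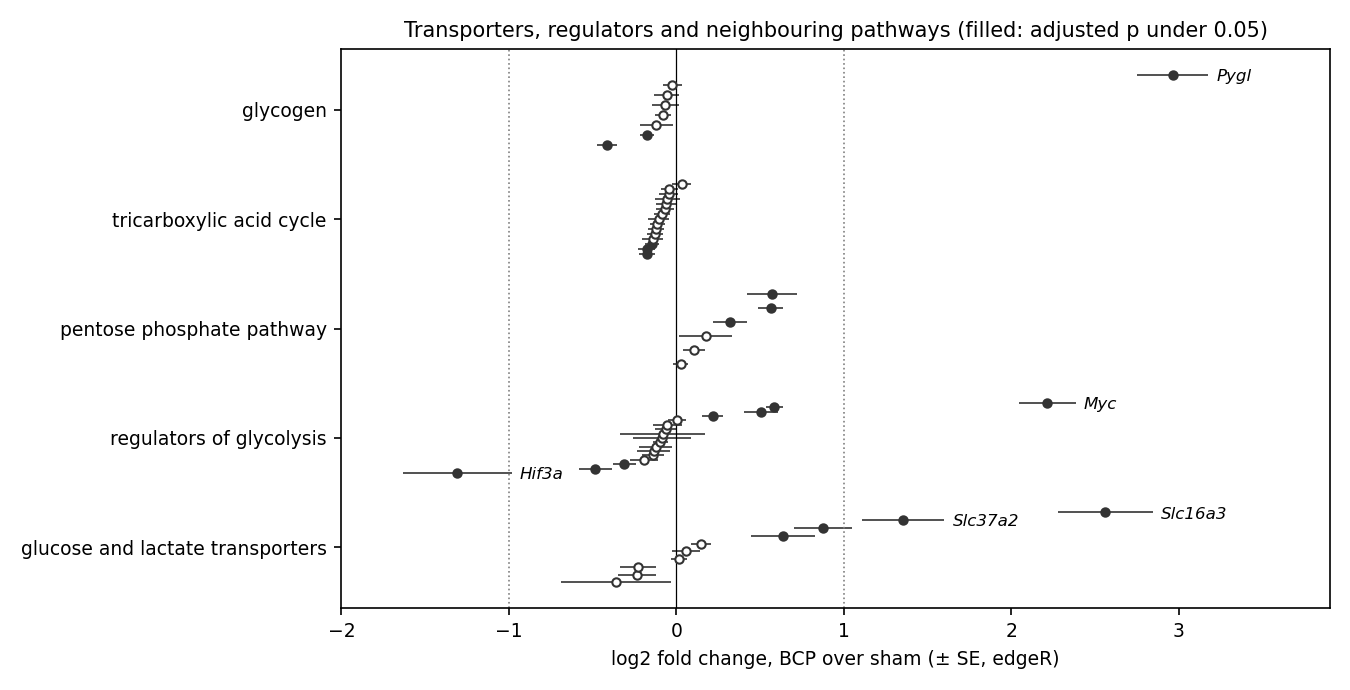
Log2 fold change, BCP over sham, with its standard error (edgeR) for tested carriers, regulators and genes of neighboring pathways, 1 point per gene. Filled points had an adjusted p under 0.05, dotted lines mark a 2-fold change, and named genes lie beyond them: Pygl, Myc, Slc16a3 and Slc37a2 above, Hif3a below.

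Markers of several cell types moved along with the isozyme genes. The counts below stand beside 15.8% higher and 12.1% lower of all genes tested in edgeR. Of 8 microglial markers 5 were higher in BCP, with a summed level of 89.8 to 110 FPKM in sham and 208 to 242 FPKM in BCP, while Tmem119 and Trem2 were among those that did not pass. All 6 tested T cell markers were higher, with sums of 0.499 to 1.09 FPKM and 16.4 to 25.5 FPKM. The 3 tested neutrophil markers were higher (2.58 to 3.24 and 34.6 to 49.7 FPKM summed over 6), with the granule genes Mpo and Elane at or near 0. Of 4 tested monocyte markers 1 was higher (18.7 to 19.6 and 26.3 to 31.2 FPKM). All 5 markers of red blood cells were higher (425 to 451 and 821 to 1213 FPKM). On the other side, 5 of 8 neuronal markers were lower (2803 to 2836 and 2458 to 2701 FPKM) and so were all 6 oligodendrocyte markers (11630 to 13098 and 8643 to 9435 FPKM). Of 7 astrocyte markers 1 was higher, Gfap, and 3 lower, and the sum was 2410 to 2547 FPKM in sham and 2979 to 3139 FPKM in BCP. Eno2 and Aldoc are themselves on the neuronal and astrocyte lists. Of 4 endothelial and 4 nerve root markers 0 passed in edgeR or DESeq2, with 0 and 1 at an unadjusted p under 0.05, and 1 of 3 tested skeletal muscle markers was lower. The part of these shifts in cell markers in the isozyme differences was not tested.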

How the data were processed

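RNA-seq was analysed for 3 sham and 3 BCP libraries, grouped by the labels of the samples. Before deposit the authors cleaned the reads (Seqtk), aligned them to build Rnor_6.0 (HISAT2 2.0.4) and estimated expression (StringTie 1.3.0), and they deposited raw counts per gene. The authors' FPKM values, deposited beside the counts, are scaled to gene length and to the library's counts. Which program counted the reads, whether it used strand and how it placed reads that map more than once are not given in the sources used here, so genes with near copies or overlapping genes are uncertain. The lncRNA table carries no KEGG annotation and was not used.

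The robust quasi-likelihood test of edgeR 4.0.16 (R 4.3.3) was run on the counts of all genes (TMM normalization, filterByExpr, no covariate), with Benjamini-Hochberg adjustment over the 14908 genes tested. Thresholds were an adjusted p under 0.05 and, where stated, a 2-fold change. DESeq2 1.42.0, other filters and normalizations, a replicate block and leaving out each library were the alternatives, and the fit was tested on simulated data. Isozyme ratios were tested on log2 FPKM by exact permutation. CPM are counts scaled to the TMM-normalized library size. Gene positions are on Rnor_6.0, and promoters on GRCr8, matched by symbol. Totals of 11779485 to 15004290 counts set the precision, and the biological coefficient of variation was 7.72%.

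The genes and lists were chosen with earlier results of these data known. Named were pathway genes past both thresholds, up to 8 others per direction with an adjusted p under 0.05, the brain, leukocyte, shared and muscle isozymes, untested genes, and from the other lists genes past both thresholds and the 2 with the smallest p. Further genes were named after their values were seen, to spell out small counts, and some genes of the lists are not reported here. Sequences of proteins were planned but not used here, and promoters were shown instead. The sources used here describe no pairing of libraries by replicate number, and the main fit used none. Figures were drawn with matplotlib 3.10.9.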

Additional observations from a re-analysis of the deposited data

How the results depend on the processing

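Counts of called genes stayed within 1.5 times of the reported values under the alternatives run, apart from those given next. With upper-quartile normalization 10 pathway genes were lower with an adjusted p under 0.05, where 6 were with TMM, and with library size alone 1 gene of the tricarboxylic acid cycle was lower, where 3 were; the cause was not tested. Genes higher past both thresholds numbered 3 to 4 with a library left out, genes higher with the adjusted p 5 to 6 and genes lower 6 to 8, and 0 were lower past both throughout. The count was also 3 with upper-quartile normalization, where Ldha came under 2-fold, and with at least 10 counts in every library, which removes Hk3. A replicate block left 4 genes higher past both thresholds, 6 higher and 6 lower with the adjusted p, and changed no call among the pathway genes named in the isozyme lists or called. Deviations of same-numbered libraries correlated at -0.11, 0.04 and -0.04. These values give no sign of pairing by replicate number, but they cannot settle whether libraries were handled in pairs. The median log2 fold change of the pathway genes ran from -0.09 to -0.01, with -0.07 to -0.03 over libraries left out. Signs turned for genes near no change. Upper-quartile normalization gave log2 values of -0.0143 for Gapdh, -0.0243 for Gpi and -0.0071 for Hk1, and Pgk1 was at 0.000446 with at least 10 counts in every library and at 0.0347 with library size alone. With a library left out Gapdh ran from -0.0325 to 0.0687, Pkm from -0.103 to 0.0122, Pgk1 from -0.0230 to 0.0184 and Gpi from -0.0093 to 0.0361. The low counts of Hk3 in sham and of the 16 untested genes set the limit of depth.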
